A study of Mus musculus with 12 samples.

Results

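Glucocorticoid receptor (GR) sites that were called in cells without dexamethasone and not called in cells with it were examined by chromatin immunoprecipitation and sequencing (ChIP-seq). Peaks of all 11 GR libraries that shared at least 1 bp were merged into 47493 regions. Members were chosen by calls: a region was kept when at least 2 of the 3 untreated libraries and 0 of the 3 dexamethasone libraries held a peak in it. That rule kept 238 regions, 0.501% of the 47493 and a minority of the 2008 regions called in at least 2 untreated libraries. The remaining 1770, which had a dexamethasone call as well, are referred to as the other untreated sites.

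The cells were BWTG3, a mouse hepatoma line, and all groups had been kept without serum for 24 h. The DEX group (3 libraries) received 1 µM dexamethasone (Dex), a synthetic glucocorticoid. The TNFDEX group (3 libraries) received 1000 U/ml of tumour necrosis factor (TNF), an inflammatory cytokine, 1 h ahead of Dex, and the TNF group (2 libraries) the cytokine alone. NI (3 libraries) carries the name of neither agent and was taken as the untreated group. The stimulation lasted 3 h in all, the series text calls the replicates biological, and 1 cell line stands for the liver here. The series title places the experiment in a study of how TNF changes GR binding.

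GR is a ligand-activated transcription factor of the nuclear receptor family. Without hormone it is held largely in the cytoplasm by a chaperone complex built on HSP90, and hormone sends it to the nucleus, where it binds palindromic response elements or associates with other factors such as AP-1 and NF-kB. In liver cells it is best known for switching on genes of glucose and amino acid metabolism and for restraining inflammatory genes.

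Depth lay between 39228805 and 51141996 tags per library. All levels below are the authors' normalized tag counts, that is, tags of a peak per 20000000 tags. Where no peak was called the level is not known and need not be 0. In 6 libraries (DEX 1, DEX 2, TNFDEX 1, TNF 1, NI 1 and NI 2) mitochondrial peaks held 1290 to 6953 normalized tags, and in the other 5 they held 70980 to 108200. NI 3, which is among those 5, gave 2524 peaks, against 5442 in NI 1 and 6502 in NI 2. The part of this split in the results below was not tested, and values from within each kind of library are given where they exist.

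Many of the 238 sites lay at transcription starts, and the upstream bases of 5 of them are shown so that the letters behind the motif counts can be read. They are the 5 strongest sites for which at least 50 bases of a promoter window lay outside every gene span. The bases are RefSeq's (GRCm38.p6, the coordinates of mm10), read 5′ to 3′ on the gene's strand, and capitals mark any of the short motifs that were searched. The stretches are chr15:100495240-100495298 (minus strand) before Csrnp2, chr3:142765121-142765246 (plus strand) before Gtf2b, chr17:45573262-45573312 (plus strand) before Gm35399, which starts divergently from Hsp90ab1, chr3:108146153-108146301 (minus strand) before Gnai3, and chr2:11603200-11603383 (minus strand) before Rbm17.
Csrnp2: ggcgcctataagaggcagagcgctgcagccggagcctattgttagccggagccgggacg
Gtf2b: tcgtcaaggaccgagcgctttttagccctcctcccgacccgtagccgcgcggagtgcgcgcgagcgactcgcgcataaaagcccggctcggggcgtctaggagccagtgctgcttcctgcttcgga
Gm35399 (Hsp90ab1): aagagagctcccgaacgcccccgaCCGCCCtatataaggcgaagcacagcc
Gnai3: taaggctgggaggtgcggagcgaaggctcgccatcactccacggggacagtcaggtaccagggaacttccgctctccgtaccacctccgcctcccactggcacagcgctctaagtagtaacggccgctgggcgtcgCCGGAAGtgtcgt
Rbm17: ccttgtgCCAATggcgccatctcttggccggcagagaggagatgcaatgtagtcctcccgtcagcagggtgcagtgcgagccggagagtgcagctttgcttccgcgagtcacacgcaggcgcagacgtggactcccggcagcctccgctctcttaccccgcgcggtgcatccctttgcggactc
The stretch at Hsp90ab1 holds a GC box (CCGCCC on the strand shown), that before Gnai3 an ETS motif (CCGGAAG) and that before Rbm17 a CCAAT box. The 2 others hold none of the motifs searched.

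Promoter windows of 300 bp (250 bases before to 50 after a start) were overlapped by 84 of the 238 sites, which touched 106 windows, some of them overlapping at divergent starts. These windows were rich in G and C, at 63.4% on average, against 61.7% in the 372 windows touched by the other untreated sites and 53.8% over all 32851 windows. A GC box (GGGCGG on either strand), the motif of SP and KLF factors, stood in 77.4% of the 106 windows, in 64.2% of those at the other untreated sites and in 35.7% of all windows. An ETS motif (CCGGAAG) stood in 27.4%, against 18.5% at the other untreated sites and 8.86% of all windows. A TATA box (TATAAA) stood in 6.60%, against 17.5% and 13.6%. At least 20 CpG dinucleotides were found in 72.6%, against 66.9% and 26.5%.

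The letters that GR itself is known for were not frequent in these windows. A single GR hexamer (TGTTCT) stood in 8.49% of the 106 windows, in 13.2% of the windows at the other untreated sites and in 19.0% of all windows. The full palindrome (AGAACA and TGTTCT with 3 bases between) was in 0 of the 106, 0 of the 372 and 3 of all 32851 windows. The AP-1 motif (TGANTCA) was in 4.72%, against 6.72% and 7.81%, and the CRE (TGACGTCA) in 3.77%, against 6.18% and 1.79%. The CCAAT box was in 38.7%, against 37.1% and 37.4%, and the E-box (CACGTG) in 9.43%, against 10.8% and 7.15%. Both strands were searched, a hexamer within a full palindrome counts as a hexamer too, and no motif was searched outside promoter windows.

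The sites concentrated at gene starts more than the other untreated sites did. Of the 238, 131 (55.0%, Wilson 95% interval 48.7 to 61.2) lay within 1 kb of either end of a protein-coding gene, against 399 of 1770 other untreated sites (22.5%, 20.7 to 24.6) and 13.0% of all merged regions. The difference of 32.5 percentage points had a Newcombe interval of 25.8 to 39.0, which treats regions as independent. Position was not used by the rule, but weak regions were over-represented by it. Among regions with a mean NI level under 10 the difference was 19.3 points, an alternative chosen after the data were seen. In the weakest class, under 8, the shares were 30.6% and 25.4%, and in each class from 8 upward the sites not called with Dex had the higher share.

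Of 231 sites on chromosomes with start-site coordinates, 47 (20.4%) overlapped a start and 113 (48.9%) had their centre within 1 kb of one. Among the 1703 other untreated sites with such coordinates these shares were 13.6% and 23.1%. The 113 did not spread evenly around the start, since 88 lay downstream and 25 upstream, with a median centre 94 bp downstream. The middle part of that distribution, between the quartiles, ran over 20 to 152 bp from the start, against -44.6 to 112 bp for the other untreated sites (positive is downstream).

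**Figure D1:**
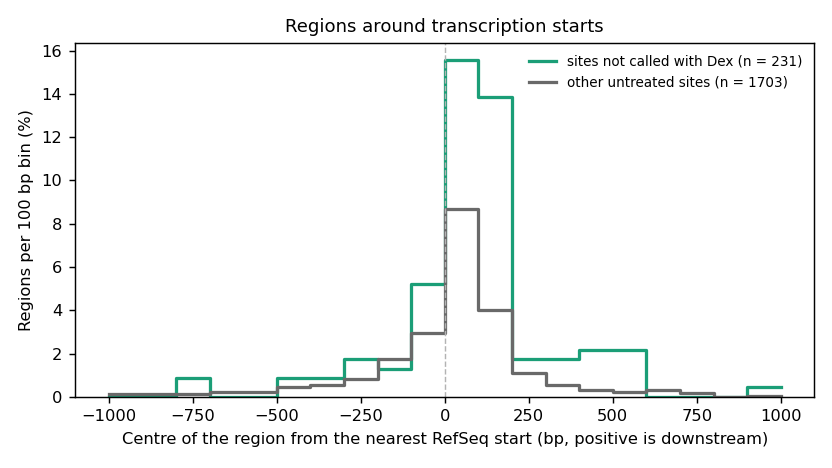
Share of regions per 100 bp bin (y axis, %) by the distance of the region's centre from the nearest RefSeq start (x axis, bp, positive downstream), for the 231 sites not called with Dex (green) and the 1703 other untreated sites (grey) with start-site coordinates. Both sets peak just downstream of the start, and the green line is the higher one there.

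The 15 sites with the highest NI level were a mixed group, and 7 of them had a Dex peak close beside them. Dex peaks within 500 bp were found at Igf2bp3, Asic2, Sirt4, Ddit3, Macrod2, Zswim2 and Maf, and 5 of these had one in all 3 DEX libraries. The peak caller kept peaks of 1 library at least 278 to 354 bp apart and placed each library's window on its own summit. A stronger summit a short way off therefore enters the list as a different region. At these places "not called with Dex" describes a window, and the neighbouring window was called.

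**Figure D2:**
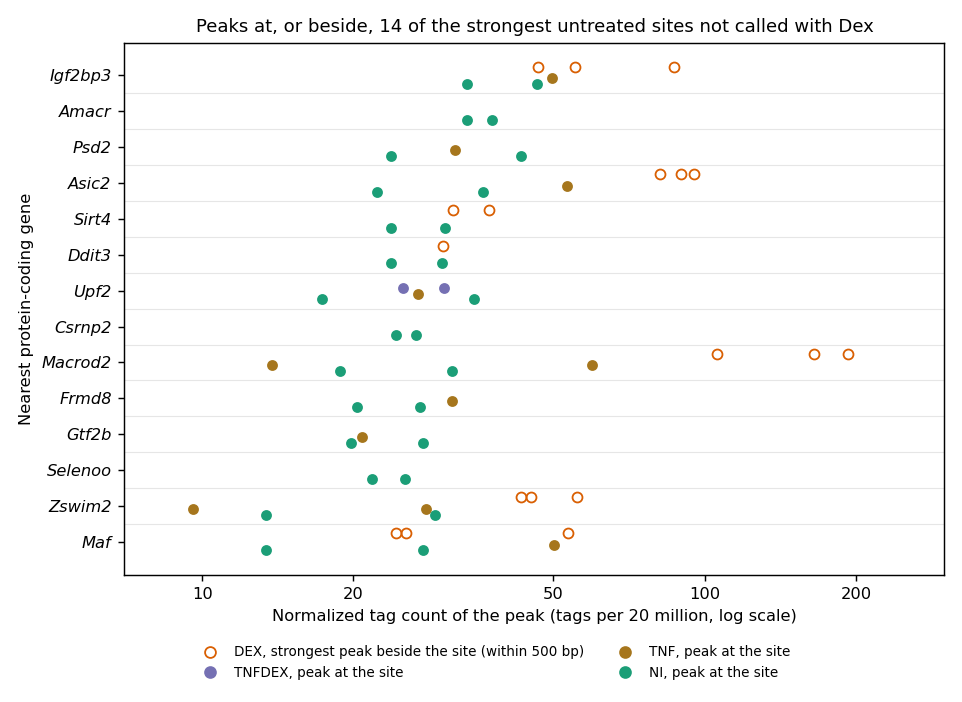
Normalized tag counts (x axis, tags per 20000000, log scale) at 14 of the 15 strongest sites (rows, by nearest gene), with open orange circles for the strongest DEX peak within 500 bp of the site and filled circles for peaks at the site in TNFDEX (purple), TNF (brown) and NI (green) libraries. Every row has 2 NI values, 7 rows have a DEX peak beside the site, and at Macrod2 the 3 DEX neighbours are the highest values of the plot.

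The clearest of them lay inside Macrod2, which encodes an ADP-ribose hydrolase (chromosome 2, 140842269 to 140842524). The DEX peaks 23 to 32 bp away had 105.6, 165.2 and 193.0 normalized tags, against 18.8 in NI 1 and 31.4 in NI 2 at the site. In the cytokine libraries the strongest peak within 500 bp had 193.7, 70.0 and 160.8 in TNFDEX, against 59.8 and 13.8 in TNF. All 6 values with Dex were thus above both TNF and both NI values, while by its own window the site counts as absent with Dex.

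A like arrangement was found inside Asic2, which encodes an acid-sensing ion channel (chromosome 11, 80949480 to 80949668). Its DEX neighbours had 81.3, 95.3 and 89.6, against 22.3 and 36.2 in NI 1 and NI 2. Inside Igf2bp3, which encodes an RNA-binding protein (chromosome 6, 49097266 to 49097431), the neighbours 132 to 195 bp away had 46.6, 55.1 and 87.0, against 33.7 and 46.4 in NI 1 and NI 2. At Igf2bp3 the lowest DEX value lay just above the higher NI value, so the groups nearly touched.

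The region nearest to Zswim2, 117.9 kb away (chromosome 2, 84059099 to 84059287), had DEX neighbours of 43.1, 55.6 and 45.2 at 1 to 15 bp, against 13.4 and 29.0 in NI 1 and NI 2. Near Maf, a leucine-zipper transcription factor gene 197.0 kb away (chromosome 8, 115903895 to 115904083), the neighbours had 24.3, 53.5 and 25.4, against 13.4 and 27.5, and the groups overlapped. At the start of Ddit3, the gene of the stress-induced factor CHOP (chromosome 10, 127290736 to 127290890), only DEX 2 had a neighbour, of 30.1 at 81 bp, against 23.8 and 30.0 in NI 1 and NI 2. Inside Sirt4, which encodes a mitochondrial sirtuin (chromosome 5, 115489725 to 115489982), DEX 1 and DEX 2 had neighbours of 37.2 and 31.6, against 23.8 and 30.4 in NI 1 and NI 2.

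Over all 238 sites, 26 (10.9%) had a DEX peak within 500 bp, of which 12 had it in 1 DEX library, 2 in 2 and 12 in 3. Among 7809 regions called in 1 NI and 0 DEX libraries this share was 4.58%, and among 17934 called in neither group it was 4.93%. The mean of the DEX neighbours was above the NI mean at 23 of the 26 and below it at 3, with a median ratio of 1.84 (0.617 to 8.66). The 2 sides are unlike measures, so an excess is partly built in and was not tested. The DEX value is the strongest peak within 500 bp, averaged over only the DEX libraries that had one. The NI value is the peak at the site itself. The highest ratio belonged to the region 29.9 kb from B4galt5, a galactosyltransferase gene, where the neighbours had 139.8, 177.4 and 120.6, against 13.9 and 19.8 in NI 1 and NI 2. That gene was named after its values were seen.

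**Figure D3:**
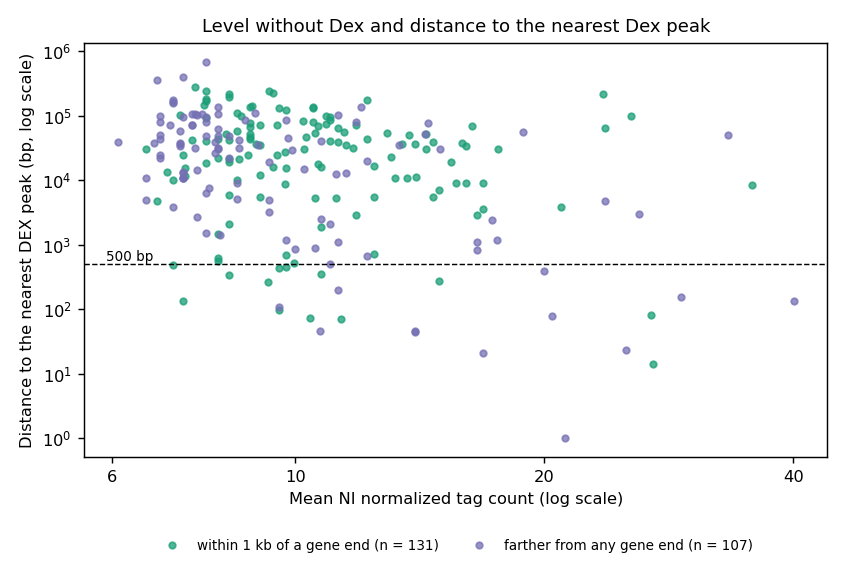
Distance from each of the 238 sites to the nearest peak of any DEX library (y axis, bp, log scale) against the site's mean NI normalized tag count (x axis, log scale), with sites within 1 kb of a gene end in green and the rest in purple. Most sites lie far above the dashed line at 500 bp, and 7 of the 15 strongest sites lie below it.

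The other 212 sites had no DEX peak within 500 bp, and 118 of them (55.7%) lay within 1 kb of a gene end. Amacr was the strongest, with 33.7 in NI 1 and 37.7 in NI 2 at 1 end of the gene (chromosome 15, 10981760 to 10981939). It encodes a racemase needed for the breakdown of branched fatty acids and bile acid precursors, and the nearest DEX peak was 8.5 kb off. No TNF or TNFDEX library had a peak at the site itself, but TNFDEX 1 had one of 55.2 within 500 bp, above both NI values.

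Psd2, which encodes an exchange factor of ARF GTPases, was the nearest gene, 33.1 kb away, to a site with 23.8 and 43.0 in NI 1 and NI 2 and 31.9 in TNF 1. A site 15.4 kb from Upf2, a gene of nonsense-mediated RNA decay (chromosome 2, 6072096 to 6072286), had 30.3 and 25.1 in TNFDEX 1 and TNFDEX 3, 26.9 in TNF 1, and 17.3 and 34.8 in NI 1 and NI 2. At Upf2 the values with both agents lay between the 2 NI values, and the nearest DEX peak was 3.0 kb away.

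The start of Csrnp2, which encodes a nuclear protein of the cysteine-serine-rich family (chromosome 15, 100495144 to 100495298), had 24.3 and 26.6 in NI 1 and NI 2 and no call in any library with TNF. The start of Gtf2b, the gene of the general transcription factor TFIIB (chromosome 3, 142765121 to 142765347), had 20.8 in TNF 1 against 19.8 and 27.5 in NI 1 and NI 2. Both carry upstream bases printed above, and their nearest DEX peaks were 99.3 kb and 63.9 kb away. Selenoo, a mitochondrial selenoprotein gene (chromosome 15, 89089069 to 89089293), was the only one of the 15 called in NI 3, with 25.3 in NI 1 and 21.8 in NI 3.

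A site 5.5 kb from Frmd8, its nearest protein-coding gene, lay 29703 bp from the start of that gene (chromosome 19, 5845325 to 5845505). It had 31.4 in TNF 1, against 20.3 and 27.1 in NI 1 and NI 2. TNF 1 lay above both NI values there, by less than NI 1 and NI 2 differed.

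Only 7 sites were called in all 3 NI libraries. All 7 lay inside genes, against 70.6% of the 238 sites, 50.3% of the other untreated sites and 49.2% of all merged regions. Their NI 1, NI 2 and NI 3 values were 11.9, 21.7 and 11.1 at Cpne1 (a calcium-dependent phospholipid-binding protein), 9.9, 13.5 and 10.7 at Rpl27 (ribosomal), and 9.4, 10.1 and 11.1 at Utp18 (ribosomal RNA processing). They were 9.4, 11.6 and 8.7 at Nexn (an actin-binding protein), 8.4, 11.6 and 8.2 at H2aw (a histone H2A gene), 7.4, 11.1 and 8.7 at Ptp4a1 (a phosphatase), and 9.4, 10.1 and 7.3 at Sgo1 (protection of cohesion at centromeres). The 3 libraries agreed closely at Utp18, at 10.2 ± 0.854 (SD, n = 3). At Cpne1, NI 2 stood well above NI 1 and NI 3.

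Rpl27 is also beside a DEX peak, of 14.9, 19.9 and 15.5 at 71 to 104 bp (chromosome 11, 101442419 to 101442642), so all 3 DEX neighbours exceeded all 3 NI values. Cpne1 (chromosome 2, 156111731 to 156111923) had a neighbour in DEX 2 only, of 9.2 at 272 bp. For the other 5 the nearest DEX peak was 12.2 to 111 kb away.

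Hsp90ab1, the gene of the chaperone that holds unliganded GR (chromosome 17, 45573136 to 45573312), had 22.4 in TNFDEX 1, 20.3 in TNF 1, and 13.4 and 18.8 in NI 1 and NI 2. Dnaja1, the gene of an HSP40 cochaperone (chromosome 4, 40722489 to 40722822), had 9.1 and 8.2 in TNFDEX 1 and TNFDEX 3, no call in TNF, and 13.9 and 14 in NI 1 and NI 2.

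Among ribosomal protein genes, Rps10 (chromosome 17, 27635113 to 27635281) had 15.3 and 17.4 in NI 1 and NI 3, and Rpl13 (chromosome 8, 123102384 to 123102565) had 9.9 and 11.1 in NI 1 and NI 2. Rpl38 was 213.0 kb from its site, which had 12.2 in TNF 1, against 9.4 and 15 in NI 1 and NI 2. A site 87.2 kb from Ptprc, the gene of the leukocyte surface phosphatase CD45, had 7.9 and 8.2 in NI 1 and NI 2.

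Counted as genes with such a site within 50 kb, the ribosomal protein list had 8 of 90, or 8.89%, Rpl13, Rpl13a, Rpl27, Rpl3l, Rpl9, Rps10 and Rps2 among them, against 2.92% of all 21896 protein-coding genes. The AP-1 and immediate early list had 2 of 20 (Fosb and Ier2). Among the targets GR is known for, the glucocorticoid response list had 1 of 28, which was the clock gene Per1. The NF-kB and TNF target list had 2 of 30 (Nfkbie and Sod2), the list of GR and its cofactors 1 of 15 (the corepressor gene Ncor1), histones 3 of 101 (H2aw, H2bu2 and H3f4) and acute phase genes 0 of 24. Of the markers of other cell types, macrophage genes had 0 of 12, stromal and endothelial genes 0 of 11 and neuronal genes 1 of 14 (Slc17a7). The other untreated sites, which are more numerous, had a site within 50 kb of 28 of the 90 ribosomal protein genes, 10 of the 20 AP-1 genes, 9 of the 28 glucocorticoid response genes, 56 of the 101 histone genes and 12.6% of all protein-coding genes.

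As the rule chose on calls, NI levels are given only as a description. The mean NI level of the 238 sites had a median of 9.45 (6.1 to 40.05), against 14.2 for the other untreated sites. A member peak held a median of 19 tags (12 to 96), and for 361 of 483 such peaks (74.7%) the lower end of the exact 95% Poisson interval was under 7.65, the highest normalized threshold of a DEX list. At 156 of the 238 sites this held for every NI peak, and at the other 82 at least 1 NI peak had its lower end above that threshold. Of these 82, 16 had a DEX peak within 500 bp and 66 did not. Such intervals cover counting error only. The threshold of 7.65 is not the lowest level called, since the lists held peaks down to 5.9 in DEX 1, 6.6 in DEX 2 and 6.0 in DEX 3. With a lower cut-off the counts of 361 peaks and 156 sites could only be smaller or equal.

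Weak untreated sites went uncalled with Dex more often than strong ones. Under a mean NI level of 8 the share not called was 49.6% (62 of 125), at 8 to 10 it was 25.1%, and at 20 and over it was 3.26% (16 of 491). On the other side of the rule, 268 untreated sites were called in just 1 DEX library. The 5 weakest of these were nearest to Gstm1, Gm17019, Apob, Zwint and Kcnv1, with DEX values of 6.9, 6.9, 7.3, 7.4 and 7.4 and NI means of 7.3, 7.1, 7.3, 7.3 and 7.3, close to the weakest members. Of the 238, 160 were called in NI 1 and NI 2 but not NI 3, 40 in NI 1 and NI 3, and 31 in NI 2 and NI 3.

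**Figure D4:**
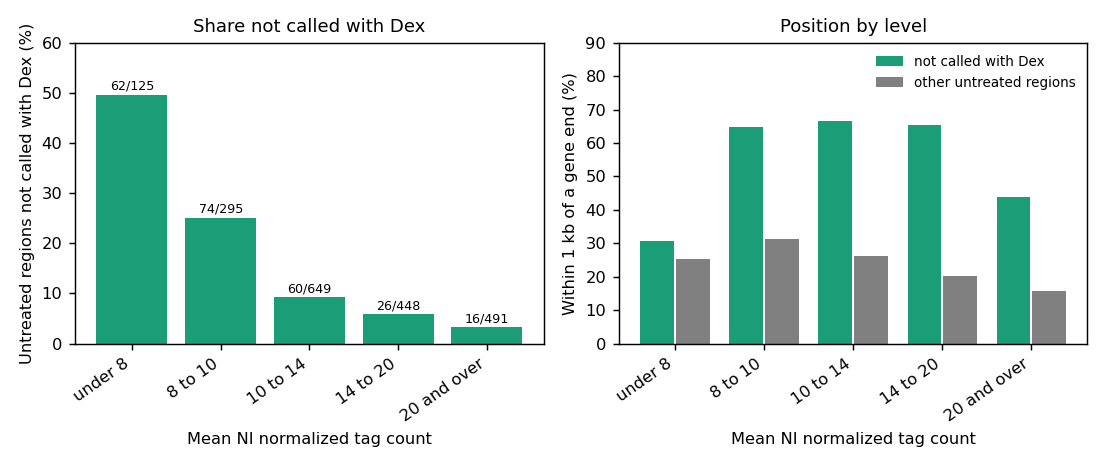
Left, the share of untreated regions not called with Dex (y axis, %) by mean NI normalized tag count (x axis), with counts above the bars. Right, the share within 1 kb of a gene end (y axis, %) in the same classes, for sites not called with Dex (green) and other untreated regions (grey); the left bars go down with level, and the green bars exceed the grey ones in every class.

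Chromosome 15 held 26 of the 238 sites (10.9%), against 79 of the other untreated sites (4.46%) and 6.57% of all merged regions. Of these 26, 20 lay in its first 60 Mb, or 8.40% of the 238 against 2.82% of the other untreated sites and 4.27% of all merged regions. They were unlike the promoter sites, since 1 of the 20 lay within 1 kb of a gene end and 13 lay beyond 50 kb of any protein-coding gene. Several fell in the gene-poor stretches around the cadherin genes Cdh9, Cdh10, Cdh12 and Cdh18, and their mean NI levels were low, with a median of 8.3 (6.6 to 35.7). This segment was picked out after the values were seen, and its copy number in these cells is not known from the files.

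Peaks of the TNF and TNFDEX libraries helped to set the merged regions, but their calls took no part in the rule. These 5 libraries show how often the sites were called again. In all 5 the sites were called less often than the other untreated sites. The shares were 30.3%, 4.20% and 7.14% in TNFDEX 1, 2 and 3, against 87.5%, 43.9% and 66.2% of the other untreated sites. They were 39.5% in TNF 1 and 7.98% in TNF 2, against 91.0% and 33.8%. Over all 47493 merged regions the shares were 47.6%, 18.2% and 29.6% in TNFDEX 1, 2 and 3, and 18.8% and 8.70% in TNF 1 and TNF 2. Beside all regions, the sites were thus called less often in TNFDEX, more often in TNF 1 and about as often in TNF 2. The difference from the other untreated sites averaged -46.7 percentage points (SD 13.9, n = 5 libraries) and was negative in 5 of 5. Its exact two-sided sign-flip permutation p was 0.062, the smallest that 5 libraries allow. Among regions with a mean NI level under 10 on both sides the difference was -37.2 points (same exact permutation p). The other untreated sites had at least 1 DEX call by the rule, and their median NI level was higher (14.2 against 9.45). A set chosen for further calls can be called more often in any library. This comparison is therefore not free of the choice in the TNFDEX or the TNF libraries, and its p is no independent support.

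**Figure D5:**
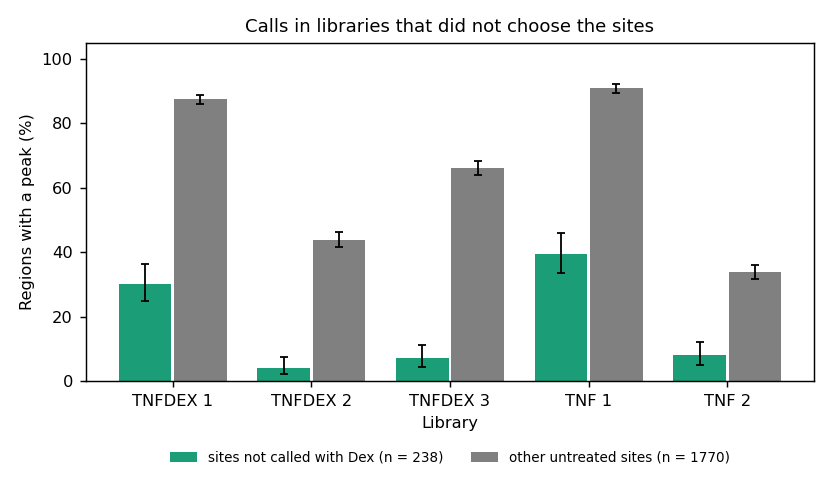
Share of regions with a peak (y axis, %, bars from 0 with Wilson 95% intervals) in each TNFDEX and TNF library (x axis), for the 238 sites not called with Dex (green) and the 1770 other untreated sites (grey). The green bar is the lower one in all 5 libraries, from 4.20% in TNFDEX 2 to 39.5% in TNF 1. The intervals treat regions as independent and do not cover the spread between libraries.

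The sites were chosen for the lack of a call with Dex, which bears on the TNFDEX libraries in what follows. Between TNFDEX and TNF the call rate of the 238 sites did not differ beyond the spread between libraries. It was 13.9% ± 14.3 in TNFDEX (SD, n = 3) and 23.7% ± 22.3 in TNF (SD, n = 2), a difference of -9.87 points with an exact two-sided permutation p of 0.5 over the libraries, where 0.1 is the smallest possible. Without TNF 1 the difference was 5.88 points. Within libraries of like mitochondrial content it was -5.78 points (exact permutation p = 0.333). For the other untreated sites it was 65.9% ± 21.8 in TNFDEX (SD, n = 3) and 62.4% ± 40.4 in TNF (SD, n = 2), a difference of 3.48 points (exact permutation p = 0.9).

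By region, 101 of the 238 sites had a peak in none of the 5 libraries, 51 in both groups, 35 in TNFDEX alone and 51 in TNF alone. Over all 47493 merged regions, 13479 had a peak in none and 6235 in both groups, and 46.0% were called in TNFDEX alone and 12.4% in TNF alone. No member was called in all 5 libraries, against 508 of all merged regions. In the libraries of low mitochondrial content, TNFDEX 1 and TNF 1, 43 sites were called in both, 29 in TNFDEX 1 alone, 51 in TNF 1 alone and 115 in neither. Of the 47493 merged regions, 5892 were called in both of these libraries and 21856 in neither. The background shares there were 35.2% for TNFDEX 1 alone and 6.42% for TNF 1 alone. The sites were thus called in TNF 1 alone in 51 of 238 cases, a larger share than over all regions. In TNFDEX 1 alone their share was smaller than over all regions, most of which were not untreated sites. Of the 1770 other untreated sites, 59 were called in TNFDEX 1 alone, 121 in TNF 1 alone and 1489 in both. Beside those, the 238 sites had the larger share in TNFDEX 1 alone as well as in TNF 1 alone.

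At the 43 sites called in both of these libraries the median log2 ratio of TNFDEX 1 over TNF 1 was 0.08, with 25 higher and 18 lower, against 0.34 at the other untreated sites and 0.53 over all regions called in both. It ran from -1.32 at a site in Gtf2a1, a general transcription factor gene (12.4 in TNFDEX 1, 30.9 in TNF 1), to 0.93 at a site 9.9 kb from Herpud1, a gene of the endoplasmic reticulum stress response (45.2 in TNFDEX 1, 23.8 in TNF 1). These 2 genes were named after their values were seen. With 1 library on each side there is no test. In limma across the regions called in all 5 libraries, 508 were tested, 61 (12.0%) were higher and 7 (1.38%) lower in TNFDEX at an adjusted p under 0.05, and none of the 238 sites was among those tested. These 68 calls were 2 higher and 0 lower with the replicate number as a block, and likewise with library totals in place of the scaling, and they were 307 higher and 225 lower without TNF 2.

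The 26 sites beside a Dex peak were mostly beside a peak in TNFDEX 1 too. In TNFDEX 1, 2 and 3, 3, 0 and 2 of the 26 had a peak at the site itself, and 19, 10 and 11 had one only beside it. In TNF 1 and TNF 2, 16 and 5 of them had a peak at the site, and 4 and 2 only beside it. These sites were picked for a Dex peak beside a window with no Dex call, so their few calls at the site in TNFDEX repeat that choice and were not tested. At Rbx1, the gene of a ubiquitin ligase subunit that is 46.9 kb from its site and was named after its values were seen, the strongest peak within 500 bp had 171.7, 72.3 and 141.4 in TNFDEX 1, 2 and 3, against 16.7 and 8.3 in TNF 1 and TNF 2.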

How the data were processed

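GR ChIP-seq peak lists of 11 libraries were analysed, and the input library entered only through the lists. The submitters' processing notes name Bowtie 1.0.0, HOMER 4.6 and CASAVA 1.8, and the build mm10. Per the file headers, peaks were called in each library separately against 1 input library, at a false discovery rate of 0.001, with 4-fold enrichment over the input and over the local 10000 bp, and a Poisson p-value of 0.0001. The deposited signal of a peak is a normalized tag count per 20000000 tags in a window on that library's own peak, so no count model was run. The authors also deposited a focus ratio (a fraction), a peak score, and fold ratios over input and surroundings with their p-values, which served only in the peak threshold alternative and in descriptions of the lists. Duplicate handling is not given in the sources used here.

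Regions were merged and selected by the rule in Python 3.11.15 (pandas 2.3.3, numpy 2.4.6, scipy 1.17.1, and matplotlib 3.10.9 for plots), and the merging rule was tested on simulated peaks. Of several peaks of 1 library in a region the strongest counted. Call shares were compared over libraries by exact permutation, and signal in TNFDEX against TNF by limma 3.58.1 (R 4.3.3) on log2 of the deposited values scaled by TMM (a trimmed mean of log ratios), with Benjamini-Hochberg adjustment at 0.05. Before scaling, the median of all TNFDEX log2 values at the tested regions was 0.90 above that of all TNF values. The limma calls are thus relative to a general shift between the groups. Gene spans and promoter windows were RefSeq's for GRCm38.p6. All 389 list genes were found. A few named sites and list results are not reported here.

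Members, gene lists and tests were chosen with earlier results of these data known. Regions are named by the nearest protein-coding gene, and were named when called in all 3 NI libraries, when among the 15 highest by mean NI level, when called in all 5 TNF and TNFDEX libraries (none was), when the nearest gene is in a list, when past the limma threshold (none was), or as the 5 weakest just outside the rule. Others are marked in the text.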

Additional observations from a re-analysis of the deposited data

How the results depend on the processing

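The number of sites depended on the thresholds. It was 81 with peaks of at least 10 normalized tags, 7 when all 3 NI libraries were required, and 716 with the 2524 strongest peaks of every library. Leaving out 1 library gave 38 to 409 sites, with 38 without NI 1, 47 without NI 2 and 409 without DEX 2, and the other alternatives stayed within 1.5 times of 238. Without an NI library the rule needed a call in every NI library left, which is stricter. Without a DEX library it asked for no call in fewer libraries, which is looser. These counts therefore mix the rule with the library. The excess near gene ends kept its sign throughout. It was 49.3 points with all 3 NI libraries, 24.5 with the strongest peaks and 19.3 below a mean NI level of 10, and 19.7 (without NI 2) to 37.2 with 1 library left out. The TNFDEX minus TNF difference in call share was -25.6 to 5.88 points with 1 library left out and changed sign without TNF 1 (5.88). With the replicate block (numbers 1 and 2) it was -6.51 points (exact permutation p = 0.5). The share of members minus other untreated sites stayed negative in all 18 alternatives, at -37.2 to -69.7 points. Of the regions called in all 5 libraries, limma called 68, but 2 on library totals and 2 with the replicate block, and 38 (without TNFDEX 3) to 532 (without TNF 2) with 1 library left out. Samples with the same replicate number deviated together (correlations 0.51 and 0.45), but with 2 shared numbers and no label for what they mark, this was not taken as pairing. The deviations of the 2 TNF libraries from their mean mirror each other, so the 2 correlations are not separate evidence. Number 1 was also of low and number 2 of high mitochondrial content in both groups, so number and content cannot be told apart here. The causes of these shifts were not tested. Member NI peaks held few tags (a median of 19), which widens the counting error of each level.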
